A study of Mus musculus with 4 samples.

Results

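Complement is a set of blood and tissue proteins that marks microbes and damaged cells, and 9 of its genes are described here in mouse lung: C3, C4b, C2 and Hc among the central and terminal components, Cfb, Cfd and Cfp of the alternative pathway, the inhibitor gene Serping1 and the receptor gene C3ar1. They were chosen by name from the 43346 genes of the deposited table, and all 9 were found there. Of them 8 passed the filter on low counts, which kept 20872 genes in all, and Cfd did not. The design poses the question of which genes differ between lungs that over-express IL-33 and control lungs. IL-33, an alarm cytokine related to IL-1, is stored in the nuclei of barrier cells and released on damage. The transgenic group, whose labelled genotype is over-expression of IL-33, has the libraries B and E. The control group has D and F, with the genotype field reading control. The treatment field names transgenic mice for all 4 libraries, so the groups rest on genotype and title. The sources used here do not give the promoter of the transgene, the strain, the age or the number of mice per library, and each title names a mouse in the singular. The p-values therefore measure the spread between these 4 libraries.

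Complement can be started by antibody through C1, by lectins that bind sugars, or by the slow spontaneous activation of C3 that the alternative pathway amplifies. All 3 routes build convertases that cut C3 and then C5, which releases the small attractants C3a and C5a and starts the membrane attack complex. The liver makes most circulating complement. Alveolar type 2 cells, macrophages and fibroblasts of the lung make components of their own, and the surfactant-lined airspace holds C3 and C5.

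Total gene counts ran from 76120696 to 87723745 per library, so the counts of abundant genes carried little counting error and those of C3ar1 and Cfd carried much. Il33 measured 1723 (B) and 874 (E) counts per 1000000 (CPM) in transgenic but 117 (D) and 108 (F) in control libraries, which matches the genotype labels. The labels call the material lung epithelial cells, and the 11 alveolar type 2 cell markers summed to between 38777 and 64594 CPM, the 5 club cell markers to between 7190 and 11185 and 6 general epithelial markers to between 1629 and 2593. Markers of other cells were abundant too, with 8 endothelial markers summing to between 4596 and 8246 CPM and 10 fibroblast and smooth muscle markers to between 1426 and 3560. In such bulk RNA, fewer cells of a type and less RNA per cell cannot be told apart. Libraries B and D held more epithelial and less endothelial marker RNA than E and F in each genotype. Eif2s3y, Ddx3y, Kdm5d and Uty of the Y chromosome were summed. In B the sum was 0.554%, in E 8.998% and in F 47.5% of its level in D. Xist, an X-linked gene expressed in female cells, measured 698 (B) and 811 CPM (E) for transgenic but 1.19 (D) and 356 CPM (F) for control. Library F, and E with less Y-linked RNA, thus held RNA of both kinds. Whether such a library came from more than a single mouse was not tested. The sexes were unequally represented, and genotype and sex overlap in part.

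Per length, C3 and Hc were far the most abundant of the 9 genes, and together they made up 73.6% to 85.6% of their summed reads per kilobase and per 1000000 reads (RPKM). C3 (ENSMUSG00000024164, chromosome 17, 57203970 to 57228136, GRCm38) is the component on which all routes converge. Its deposited level was 57.7 and 45.6 RPKM in the transgenic libraries B and E, and 51.2 and 36.1 in the controls D and F, and its mean exceeded that of 96.1% of the genes tested. Hc (ENSMUSG00000026874, chromosome 2, 34983331 to 35061438) encodes C5, the precursor of C5a and of the first protein of the membrane attack complex. Its level was 48.0 (B) and 40.3 RPKM (E) in transgenic and 29.5 (D) and 31.8 RPKM (F) in control libraries. C3 lay above Hc in every library, but the ranges of the 2 genes over the libraries overlapped.

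The other genes lay lower. Serping1, with 10.8 to 17.8 RPKM, came next and overlapped neither Hc above it nor Cfb below it. Cfb followed with 2.49 to 2.83 RPKM. Cfp ranged from 1.19 to 2.24 RPKM, C2 from 1.22 to 2.16 and C4b from 0.819 to 1.204. Over the libraries Cfp overlapped both C2 and C4b. Within every library C4b lay below Cfp and C2, while Cfp and C2 changed places, so their order is not set. The levels of Cfb and C2 also depend on how reads shared with the predicted gene Gm20547, which overlaps both, were assigned. That model held 42.9% to 44.3% of the counts of C2, Cfb and Gm20547 together. The places of Cfb and C2 in the order are therefore uncertain as well. C3ar1 lay between 0.102 and 0.164 RPKM. Cfd was nearly undetected.

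**Figure D1:**
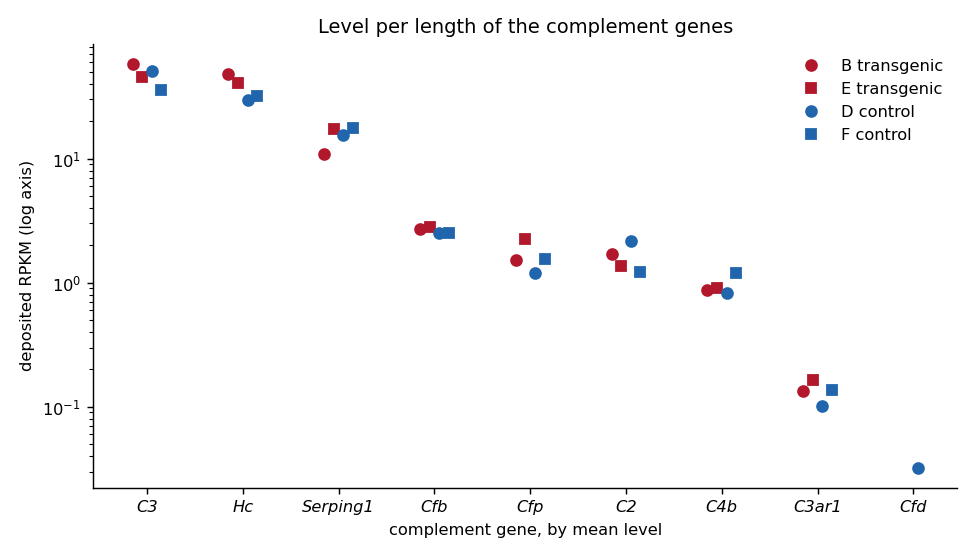
Deposited RPKM (log axis) of the 9 complement genes in each library, ordered by mean; red marks the transgenic libraries B and E, blue the control libraries D and F. C3 and Hc lie highest, and Cfd appears only for D because its value in the other libraries was 0.

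The sequence around the start of the most abundant genes is shown because C3 and Hc carry most of the complement RNA. Each run covers 250 bases before to 50 after the RefSeq gene start on GRCm38.p6, on the minus strand, written from 5′ to 3′. Capitals mark matches, on either strand, to TTNNGNAA, a loose pattern of C/EBP factors, or to TATAAA, the letters of a TATA box. The C3 window is chr17:57228087-57228386 and the Hc window is chr2:35061363-35061662.
C3: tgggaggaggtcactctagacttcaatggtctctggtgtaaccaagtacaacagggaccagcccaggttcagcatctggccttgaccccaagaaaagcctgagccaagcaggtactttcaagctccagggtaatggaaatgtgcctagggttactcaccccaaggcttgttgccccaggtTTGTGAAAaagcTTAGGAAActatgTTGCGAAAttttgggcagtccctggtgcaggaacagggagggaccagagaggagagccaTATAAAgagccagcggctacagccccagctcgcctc
Hc: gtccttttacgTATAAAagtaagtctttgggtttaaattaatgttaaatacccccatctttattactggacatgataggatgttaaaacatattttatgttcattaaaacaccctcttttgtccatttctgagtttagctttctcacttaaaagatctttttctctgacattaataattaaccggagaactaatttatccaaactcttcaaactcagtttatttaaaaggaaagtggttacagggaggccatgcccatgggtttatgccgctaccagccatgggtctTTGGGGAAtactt
The C3 window held 3 matches to the first pattern and 1 to TATAAA, and no match overlapped another. The C3 TATAAA, from base 265 of the window, lies after the annotated start. The Hc window held 1 match to each pattern, TATAAA from base 12, before the annotated start, and the other from base 288, after it. Of 32851 promoter windows of this length, 40.7% held the first pattern and 13.6% TATAAA, so such matches are common, and they show no binding.

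With all 4 libraries Hc had the highest log2 fold change of the 8 genes tested, while Cfp exceeded it without B (0.69 against 0.37) and without F (0.63 against 0.56). It stood at 374 CPM in B and 304 in E against 230 in D and 241 in F. Both transgenic libraries lay above both controls, and the controls lay close together. Transgenic libraries averaged 339 ± 49.8 CPM and controls 236 ± 7.70 CPM (SD, n = 2 per group), a log2 fold change of 0.52 (SE 0.15). The gene did not pass edgeR's quasi-likelihood test over all genes (adjusted p = 1, unadjusted p = 0.0159). A transgenic library exceeded a control library by between 1.26-fold (E over F) and 1.62-fold (B over D). Without B the log2 fold change was 0.37 and without E it was 0.66. The antisense gene Gm13449, which shares 76 exon bases with Hc, stood at 8.19 and 7.02 CPM in the transgenic libraries B and E, and 4.85 and 5.70 in the controls D and F. The sources used here do not say whether counting used strand, so reads of that overlap cannot be assigned.

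C3 did not separate the genotypes. It stood at 369 (B) and 282 CPM (E) in transgenic and 329 (D) and 225 CPM (F) in control libraries, so control D lay above transgenic E. The log2 fold change was 0.23 (SE 0.24, adjusted p = 1 by edgeR's quasi-likelihood test), and it was -0.014 without F, 0.026 without B and 0.54 without D. C3 was highest in B, then D, E and F. The order of the libraries for each gene was compared with that of 13 cell type marker lists, as a description. The summed level of 11 alveolar type 2 cell markers, which ran from 64594 CPM in B through 53053 in D and 42757 in E to 38777 in F, had the same order, as did the epithelial markers. The part of these cells in the C3 values was not tested. None of the 11 markers was at 0. Hc did not follow that order, since E lay above D for Hc and below D for the type 2 cell markers.

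**Figure D2:**
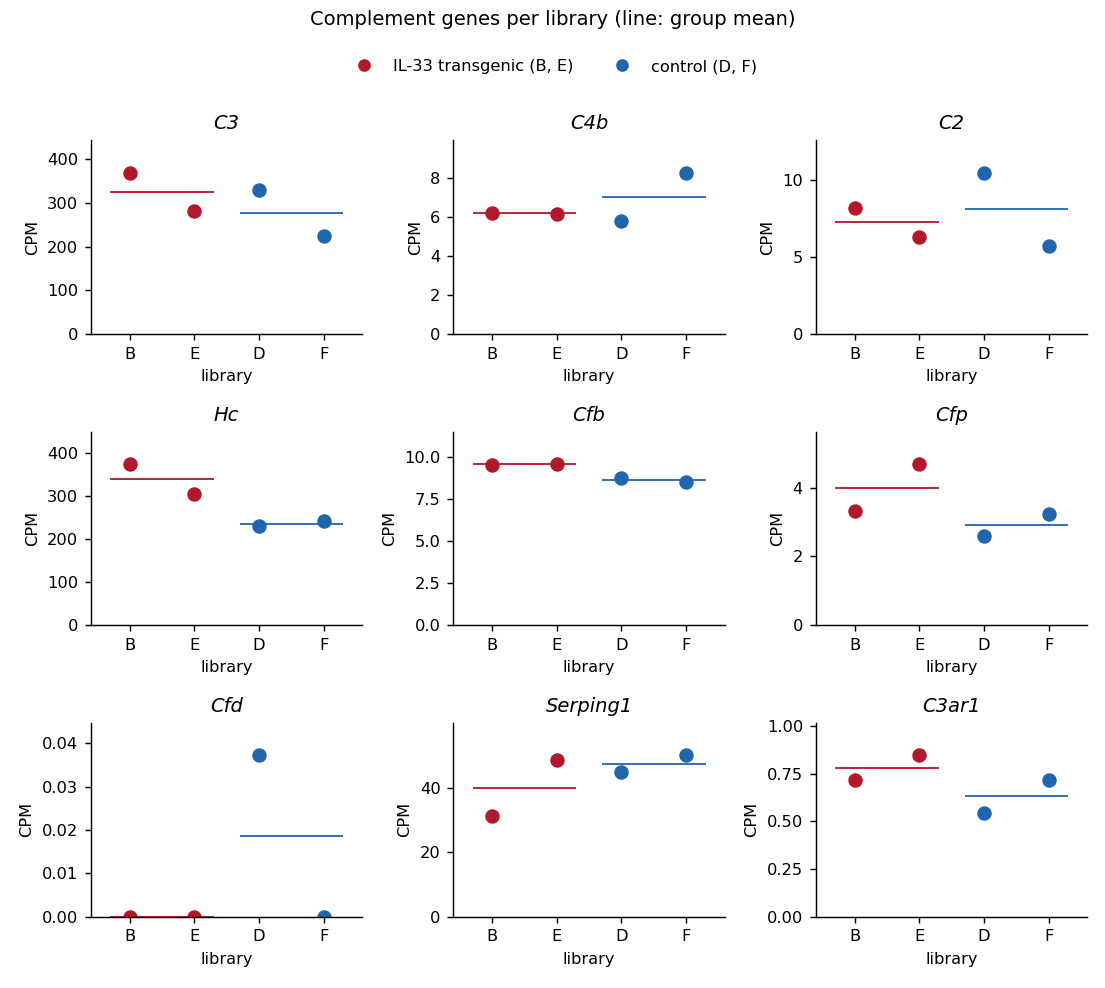
CPM of each complement gene in each library, with the mean of each genotype as a line; every vertical axis starts at 0 and has its own scale. The transgenic libraries lie above both controls for Hc, Cfb and Cfp, and the libraries overlap for the other genes.

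C4b and C2 build the C3 convertase of the classical and lectin routes, and neither separated the genotypes. C4b (ENSMUSG00000073418, chromosome 17, 34728380 to 34743882) stood at 6.22 and 6.18 CPM in the transgenic libraries B and E, and 5.82 and 8.30 in the controls D and F. Both transgenic libraries lay between the controls (log2 fold change -0.19, SE 0.22), and without F the value was 0.092. C2 (ENSMUSG00000024371, chromosome 17, 34862604 to 34898265) stood at 8.17 (B) and 6.30 CPM (E) in transgenic and 10.4 (D) and 5.72 CPM (F) in control libraries, so the 2 controls were its highest and lowest libraries (log2 fold change -0.16, SE 0.33). Without D the value for C2 was 0.34, without E it was 0.0040 and without F it was -0.53. The order of the libraries for C2, with D highest and then B, E and F, was also that of 5 mesothelial markers, which summed to 189 CPM in D, 136 in B, 70.0 in E and 56.9 in F. Whether pleural cells contributed to the C2 values was not tested.

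C4b has a close neighbour and relative, C4a, also called sex-limited protein, so the level of C4b is uncertain. The longest transcripts of the 2 genes in GENCODE M21 were identical at 96.1% of 5367 aligned bases, and 35.2% of the 50-base stretches of C4b also occur in C4a. The window of 60 bases in which they differ most, at 13 positions in capitals, is shown because reads of the 2 genes are told apart best there. It covers bases 2761 to 2820 of the C4b transcript and 2755 to 2814 of the C4a transcript.
C4b: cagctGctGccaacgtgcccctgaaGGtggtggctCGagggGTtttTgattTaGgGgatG
C4a: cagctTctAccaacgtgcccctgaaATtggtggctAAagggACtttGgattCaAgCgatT
C4a itself was scarce, at 1.06 and 1.35 CPM in the transgenic libraries B and E, and 0.782 and 0.822 in the controls D and F. Its transgenic libraries lay above its controls, unlike those of C4b (log2 fold change 0.59, SE 0.28, adjusted p = 1 by edgeR's quasi-likelihood test).

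The alternative pathway genes Cfb and Cfp lay higher in both transgenic libraries, by small amounts. Cfb (ENSMUSG00000090231, chromosome 17, 34856374 to 34862518) encodes factor B, the protease of the alternative C3 convertase. It stood at 9.57 CPM in B and 9.60 in E against 8.80 in D and 8.53 in F. The groups did not overlap, but the log2 fold change was only 0.15 (SE 0.14, adjusted p = 1 by edgeR's quasi-likelihood test). Cfp (ENSMUSG00000001128, chromosome X, 20925454 to 20931555) encodes properdin, which stabilises that convertase and is made mainly by myeloid cells. It stood at 3.31 CPM in B and 4.68 in E against 2.58 in D and 3.24 in F. The gap between B and F was slight, with a ratio of 1.02, while E stood 1.81-fold above D. The log2 fold change of Cfp was 0.46 (SE 0.26, adjusted p = 1 by edgeR's quasi-likelihood test), and it was 0.18 without E and 0.30 without D. Summed, the leukocyte markers Ptprc, Coro1a, Laptm5, Cd52 and Cd53 ran in the order of Cfp. The sum was 57.9 (B) and 89.2 CPM (E) in transgenic and 24.7 (D) and 50.2 CPM (F) in control libraries. Of these 5 markers 4 lay higher in both transgenic libraries without overlap, against 11.9% of all genes tested, and none was at 0. The sum of the 9 neutrophil markers, at 20.6 and 34.3 CPM in transgenic and 12.1 and 13.5 CPM in control libraries, ran in that order too. Not every marker of the leukocyte and neutrophil lists did so singly. Their part in the Cfp values was not tested.

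The counts of C2 and Cfb are not independent. The genes lie next to each other on the minus strand, and the predicted read-through gene Gm20547 spans both. All 3902 exon bases of Gm20547 in GENCODE M21 belong to another gene model as well, and it shares 42.8% of the exon bases of C2 and 79.5% of those of Cfb. The table nevertheless credits it with 958 to 1166 counts per library, which is 42.9% to 44.3% of the counts of the 3 models. Summed as 1 locus, they stood at 31.8 and 28.5 CPM in the transgenic libraries B and E, and 33.7 and 25.5 in the controls D and F. The groups overlapped, and the log2 fold change of the locus was 0.028 (SE 0.17), so the separation of Cfb was not seen in the sum. The sum cannot decide on Cfb, because it includes C2, whose highest library was 1.83-fold its lowest, against 1.13-fold for Cfb. It may also hold reads of shared exons more than once.

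Cfd (ENSMUSG00000061780, chromosome 10, 79890853 to 79892656), which encodes factor D, the protease that activates factor B, was nearly undetected. It had 3 counts in D and 0 counts in B, E and F, where a count of 0 allows up to 3 counts, or 0.0397, 0.0339 and 0.0352 CPM. No fold change is given. Factor D is also called adipsin, a main product of fat cells, and the fat cell marker Adipoq had 2 counts in D, 2 in E and 0 in B and F. The 8 adipocyte markers summed to between 1.05 and 2.21 CPM. Cidec (0.112 to 1.04 CPM) and Thrsp (0.794 to 0.948 CPM) supplied most of that sum. For Cfd the name of a component made in the lung is thus not borne out at this depth in these libraries.

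Serping1 encodes the C1 inhibitor, which blocks the proteases of the classical and lectin routes. Serping1 (ENSMUSG00000023224, chromosome 2, 84765387 to 84775444) stood at 31.2 (B) and 48.6 CPM (E) in transgenic and 44.8 (D) and 49.98 CPM (F) in control libraries. Library B stood apart below the other 3, which lay close together. The log2 fold change was -0.25 (SE 0.23, adjusted p = 1 by edgeR's quasi-likelihood test), and it was 0.038 without B and -0.61 without E. The sum of the 10 fibroblast and smooth muscle markers ran in the same order of libraries, from 1426 CPM in B through 2161 in D and 3014 in E to 3560 in F. So did the sum of the 8 endothelial markers, from 4596 CPM in B through 5849 in D and 7437 in E to 8246 in F. No marker of either list was at 0, and their part in the Serping1 values was not tested.

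C3ar1, the receptor gene for the fragment C3a on myeloid cells, was scarce. C3ar1 (ENSMUSG00000040552, chromosome 6, 122847138 to 122856161) had 54 and 75 counts in the transgenic libraries B and E, and 44 and 61 in the controls D and F. That is 0.715, 0.846, 0.546 and 0.716 CPM, so B and F were level and the groups overlapped (log2 fold change 0.31, SE 0.31, adjusted p = 1 by edgeR's quasi-likelihood test). The value was 0.13 without D and 0.17 without E. Summed, the 8 alveolar macrophage markers were likewise highest in E (133 CPM) and lowest in D (21.6 CPM). At 80.6 CPM in F and 55.0 in B, however, their sum differed between the libraries that were level for C3ar1. None of the 8 was at 0. The leukocyte markers were also highest in E (89.2 CPM) and lowest in D (24.7 CPM), with 57.9 in B and 50.2 in F. So were the summed neutrophil markers (34.3 CPM in E, 12.1 in D). The part of any of these cells in the C3ar1 values was not tested.

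**Figure D3:**
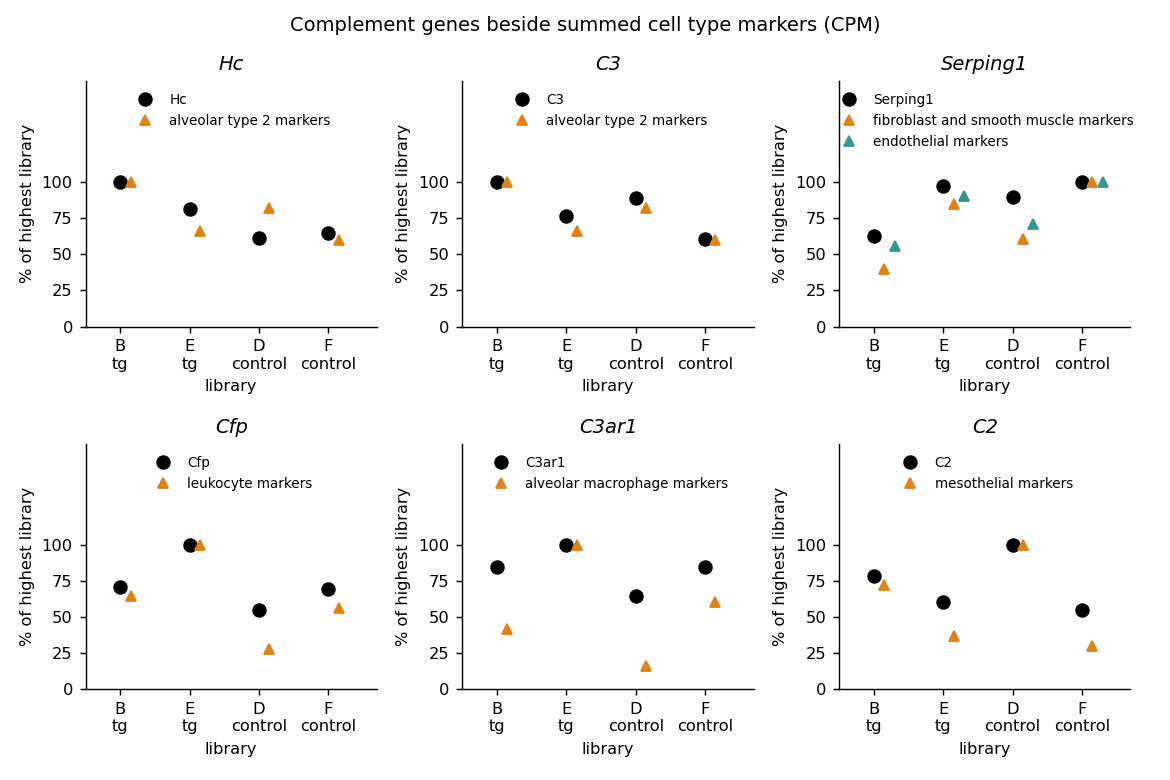
CPM of 6 complement genes (black) and summed CPM of cell type markers (triangles), each as a percentage of its highest library. The order of the 4 libraries is shared between gene and markers in the panels of C3, Serping1, Cfp and C2. For C3ar1 libraries B and F are level, and for Hc E lies above D while the type 2 cell markers lie lower in E than in D.

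Across the 8 genes tested, 0 passed at an adjusted p of 0.05 in edgeR's quasi-likelihood test, where 0% of all genes tested did. DESeq2 and limma-voom also called 0 of the 8, and DESeq2 called 1 gene of the genome (0.00479%), Il33. With 1 library left out, edgeR again called 0 of the 8, against 0.00924% of all genes without B, 0.0697% without E, 0% without D and 0.0231% without F. At an unadjusted p under 0.05 there was 1 of the 8, Hc, against 1.29% of all genes. With a term that separates B and D from the other two libraries, a split seen in the data and not given by the labels, edgeR again called 0 of the 8 at an adjusted p of 0.05. In that fit 3 had an unadjusted p under 0.05, against 6.14% of all genes: Hc (log2 fold change 0.51, SE 0.11), C3 (0.25, SE 0.083) and Cfp (0.45, SE 0.17). The split pairs B with D and E with F and was chosen from these same libraries, so these p-values are no separate support. Of the 8, 5 had log2 fold changes above 0 and 3 below, with a median of 0.19 where the median over all genes tested was -0.0013. The 3 genes without overlap between groups were all higher in transgenic libraries, against 11.9% of all genes tested, and 0 were separated lower, against 12.0%.

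**Figure D4:**
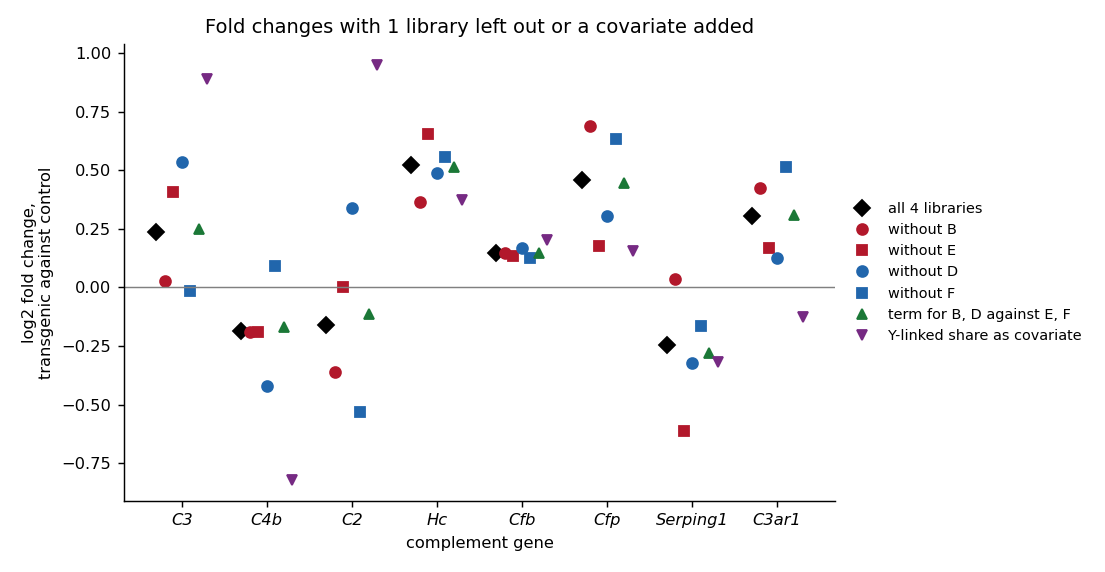
Log2 fold change of each complement gene (transgenic against control) with all 4 libraries, with each library left out in turn and with 1 covariate added. Hc, Cfb and Cfp stay above 0 throughout, while C3, C4b, C2, Serping1 and C3ar1 each cross 0 under at least 1 setting.

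The rest of the pathway was read from a list of 53 further complement genes, of which 52 were in the table and 41 were tested. None passed at an adjusted p of 0.05 (0 of 41 in edgeR's quasi-likelihood test, DESeq2 and limma-voom alike). In the edgeR test 3 of the 41 had an unadjusted p under 0.05, against 1.29% of all genes tested. The median log2 fold change of the 41 was 0.12, with 26 above 0 and 15 below. Over all genes tested 10351 lay above 0 and 10521 below. Groups did not overlap for 7 genes higher and 7 lower in transgenic libraries, which is 34.1% of the list against 23.9% of all genes tested.

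Genes that start the classical and lectin routes went both ways, with 4 of 16 separated higher, against 11.9% of all genes tested, and 4 lower, against 12.0% (50% of the class in either direction, against 23.9%). The most abundant per length was Colec12, a scavenger receptor with a collectin domain, at 25.1 (B) and 37.2 CPM (E) in transgenic and 34.0 (D) and 41.2 CPM (F) in control libraries. The collectin genes Colec10 and Colec11 lay lower in both transgenic libraries, with log2 fold changes of -0.38 (SE 0.19) and -0.72 (SE 0.27). C1ra, a protease of the C1 complex, had -0.17 (SE 0.19), and its relative C1rl had 0.25 (SE 0.25).

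The membrane attack complex was represented mainly by C6. This gene, whose protein binds C5b, stood at 213 and 163 CPM in the transgenic libraries B and E, and 169 and 142 in the controls D and F, so E lay below D and the groups overlapped (log2 fold change 0.27, SE 0.18). C8b and C9 had 0 counts in every library, which allows at most 3 counts in each, and C8a had a mean of 0.0066 CPM. RNA for a complete membrane attack complex was thus not detected at this depth.

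Among the soluble regulators, Cfi, the protease that degrades C3b and C4b proteins, lay higher in both transgenic libraries. It stood at 2.82 CPM in B and 1.95 in E against 1.54 (D) and 1.33 (F) in controls (log2 fold change 0.73, SE 0.28, unadjusted p = 0.0467, adjusted p = 1 by edgeR's quasi-likelihood test). Clu, the chaperone clusterin that holds back the membrane attack complex and the most abundant of this class, lay lower at 58.3 and 61.5 CPM in transgenic against 66.6 and 66.8 CPM in control libraries (log2 fold change -0.15, SE 0.09). On cell surfaces the most abundant regulator was Cd55, which speeds the decay of convertases. It stood at 129 CPM in B and between 81.9 and 87.1 in the other 3 libraries. Cd59b, which blocks the last step of the membrane attack complex, averaged 1.02 CPM and had a log2 fold change of -0.36 (SE 0.26). Its more abundant relative Cd59a stood at 22.6 (B) and 20.8 CPM (E) in transgenic and 18.7 (D) and 22.7 CPM (F) in control libraries. The groups overlapped for Cd59a (log2 fold change 0.064, SE 0.14).

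The receptors had the highest median log2 fold change of the 5 classes, 0.74 over 7 genes tested, and 2 of them (28.6%) were separated between the groups, against 23.9% of all genes tested. That median is the value of C5ar1. The integrin chain genes Itgam, Itgax (1.29, SE 0.78) and Itgb2 (0.84, SE 0.54) lay above it, and Itgax and Itgb2 overlapped between the groups. C5ar2 (0.021), C1qbp and Cd93 (-0.17) lay below it. Itgam, the α chain of complement receptor CR3, stood at 4.49 CPM in B and 6.57 in E against 1.91 (D) and 3.698 (F) in controls (log2 fold change 0.98, SE 0.39, adjusted p = 1 by edgeR's quasi-likelihood test). The sum of the leukocyte markers given beside Cfp ran in the same order. C5ar1, the receptor of C5a, stood at 2.26 (B) and 4.22 CPM (E) in transgenic and 0.794 (D) and 3.10 CPM (F) in control libraries, so control F lay above transgenic B. C1qbp, a mostly mitochondrial C1q-binding protein, was lower by little (log2 fold change -0.08, SE 0.09). Cd93, a surface glycoprotein of endothelial and myeloid cells, was the most abundant of the class, at 884 CPM in B and 1173 to 1391 in the other 3 libraries.

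**Figure D5:**
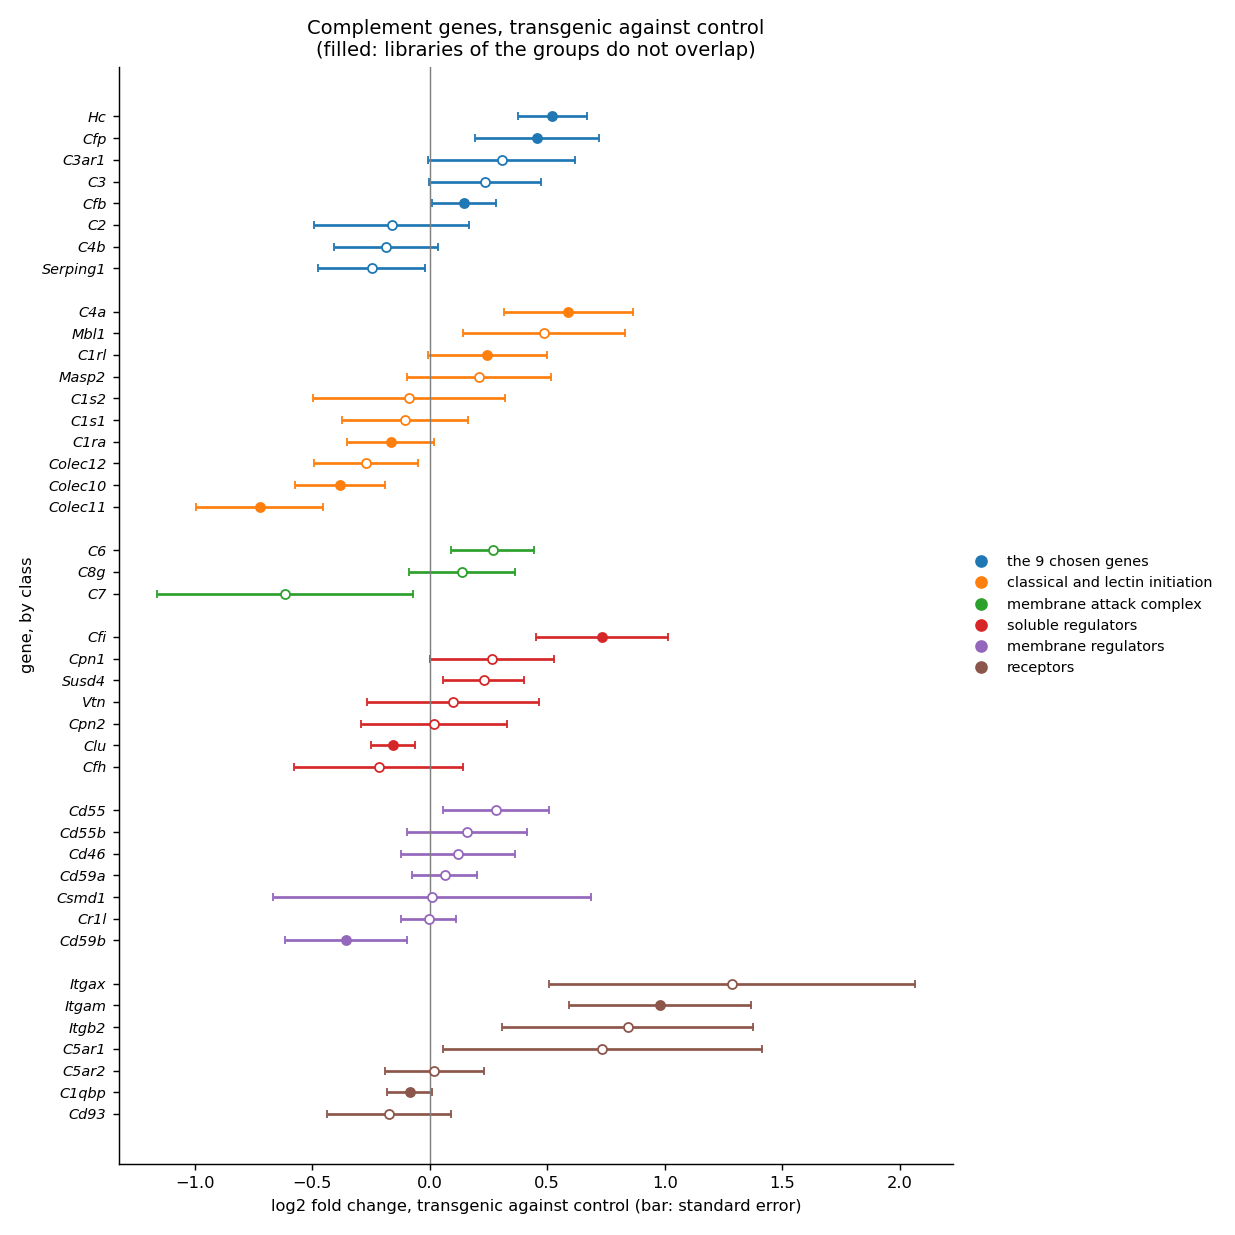
Log2 fold change (transgenic against control) with its standard error for the tested complement genes chosen by name and for the other tested complement genes averaging at least 1 CPM, coloured by class. Filled points are genes whose libraries do not overlap between genotypes; none passed an adjusted p of 0.05.

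The genes whose pattern over the 4 libraries was most like that of each complement gene were sought among about 10136 genes averaging at least 10 CPM. Likeness is the root mean square difference of log2 CPM after centring each gene. For Hc the nearest was Gprin3 (0.036), then Steap2 (0.044) and the acidic chitinase gene Chia1 (0.059), which stood at 1494 and 1212 CPM in the transgenic libraries B and E, and 1016 and 1000 in the controls D and F. For C3 they were the lipid transporter gene Abca5 (0.025) and the MHC class II loading genes H2-DMa (0.026) and H2-DMb1 (0.029). For Serping1 they were Prdm8 (0.0082) and the endothelial genes Plvap (0.0086) and S1pr1 (0.014).

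For Cfb the nearest were Zfp623, Ttc1 and Slc46a3 (0.0079 to 0.013), and those given for C4b are Gem (0.031) and Kank1 (0.038). C2 lay nearest to the MHC class I gene H2-Q1 (0.039), then Mir6240 and Gpm6a. Cfp lay nearest to the TNF receptor gene Tnfrsf1b (0.055), then B4galnt1 and Ripor2. C3ar1 lay nearest to Itpr2 (0.037), Zbed6 and Smg1. With 4 libraries many genes share a pattern, so these names describe likeness only.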

How the data were processed

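Per the labels' protocols, polyadenylated RNA was prepared with a Qiagen RNeasy kit. TopHat2 (version 2), Bowtie (1) and featureCounts (1), with the builds mm10 and GRCm38, are named in the submitters' processing notes. The sources used here do not give the annotation release, the strand setting or how multiply matching reads were treated. The authors deposited whole-number read counts and RPKM values per gene and library. The table's length column equals the exon bases of GENCODE M21 for 8 of the 9 genes (Cfd differs by 1 base). Of 540 M21 gene models with no exon base outside other models of their strand, 461 held counts, so at least some reads in shared exons were counted. The count does not show whether others were discarded or how they were assigned. Symbols came from GENCODE M21 by identifier (42462 of 43346 matched).

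The filter was filterByExpr at a minimum count of 10 and a minimum total of 15, and counts were scaled by TMM and tested by quasi-likelihood in edgeR (version 4.0.16 under R 4.3.3; transgenic against control, no covariate, legacy setting, Benjamini-Hochberg at 0.05 over 20872 genes). Each standard error was derived from the log2 fold change and its F statistic. CPM was computed on TMM-scaled library sizes, and floors and limits cover counting error only. Alternatives were other scalings and filters, each library left out, the fit without its legacy setting, DESeq2 1.42.0, limma-voom (limma 3.58.1) and 2 covariates. Fits were tested on simulated counts. Named genes are the 9, and of the other complement genes the most abundant per class and those of at least 1 CPM without overlap between groups, besides the 3 most similar genes for each of the 8 tested (of which 1 is not reported here), gene models that overlap them and the label checks. C8a, C8b, C9, C5ar1, C5ar2, Cd59a, Itgax and Itgb2 were named after their values were seen. The 9 genes, the lists and the alternatives were chosen with earlier results of these data known. Of 13 marker lists compared with each gene, those named in the text run in its order of libraries (for C3ar1 with B and F level), and the adipocyte list ran with C3ar1 and the monocyte list with Cfb as well.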

Additional observations from a re-analysis of the deposited data

How the results depend on the processing

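Over 13 or 14 alternatives the log2 fold change kept its sign throughout for Hc (0.37 to 0.66, adjusted p from 0.346 to 1), Cfb (0.028 to 0.20) and Cfp (0.15 to 0.69). With the Y-linked level of each library as covariate, C2 turned to 0.95 and C3ar1 to -0.13, C3 moved to 0.89 and C4b to -0.82. In that fit Hc stood at 0.37 (SE 0.45), Cfb at 0.20 (SE 0.44) and Cfp at 0.15 (SE 0.67). Each of these was smaller than its standard error, so the kept sign does not separate them from 0 there. Summing C2, Cfb and Gm20547, chosen after seeing the data, gave 0.028, a turn for C2. With 1 library left out the ranges were -0.014 to 0.54 for C3, -0.53 to 0.34 for C2, -0.42 to 0.092 for C4b, -0.61 to 0.038 for Serping1 and 0.13 to 0.52 for C3ar1; signs turned without F (C3, C4b), B (Serping1), and D or E (C2, 0.0040 without E). The cause was not tested. No setting called any of the 8 genes or of the 41 other complement genes (0 in each). Over all genes the count of calls was 0, or 1 with DESeq2, and 0 to 15 with 1 library left out (2 without B, 15 without E, 0 without D, 5 without F). The order of the 9 genes by level was the same in TPM. The lone library left in a group is assumed to vary like the other group. The labels carry letters and no replicate numbers, so nothing in them pairs B with D or E with F. A term for that split has 1 transgenic and 1 control library on each side, so it acts as a pairing taken from the data. The term left every sign as it was. It gave unadjusted p-values of 0.00437 for Hc, 0.0284 for C3 and 0.0444 for Cfp (edgeR's quasi-likelihood test, adjusted p 0.788, 0.799 and 0.799). Because the pairing was chosen from these same libraries, these p-values are no separate support. Depth limits the values of C3ar1 and Cfd.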

Other observations

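Per length (RPKM), the ratio of Hc to C3 was 0.832 and 0.885 in the transgenic libraries B and E and 0.883 in control F. It stood apart at 0.576 in control D. Library D had the highest Y-linked level, and also the highest mesothelial (189 CPM) and the lowest leukocyte marker sum (24.7 CPM). The cause of the low ratio was not tested. The RPKM values of the 9 genes summed to 124 and 111 in the transgenic libraries and to 103 and 92.3 in the controls D and F. Both transgenic sums thus lay above both controls, as the CPM of 11.9% of all genes tested did. C3 and Hc supplied most of the sum in each library. C3 overlapped between the groups (45.6 RPKM in E, 51.2 in D), while Hc did not (40.3 in E, 31.8 in F), so the sum is no separate result about the 9 genes.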
